A study of Mus musculus with 33 samples.

Results

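Livers of mice fed the lipid-lowering drug fenofibrate were compared directly with livers of mice fed fish oil, gene by gene, to show which liver functions separate the drug from the oil. The comparison takes every array labelled fenofibrate (n = 12) and every array labelled fish oil (n = 11), which together are 23 of the 33 arrays of the series, and tests 8832 genes on them. All animals were male C57BL/6J mice, 17 weeks old and kept 2 to a cage, whose livers were taken in a daytime fast after 2 weeks of feeding. The fenofibrate diet held 0.03% (w/w) of the drug in a research diet with sunflower oil at 7% of energy, an oil with 81.3% oleic acid. The fish oil diet held no drug and fish oil at the same 7% of energy, with 23.1% EPA and 21.1% DHA, in place of the sunflower oil. The groups therefore differ in the drug and in the kind of oil, and the direct comparison alone does not separate these. The 10 livers of mice on the sunflower oil diet without drug entered no test, and their medians are given only as reference levels.

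Fenofibrate activates PPARα, a nuclear receptor of hepatocytes that pairs with RXR and switches on genes for the uptake, storage and oxidation of fatty acids. EPA and DHA, the long omega-3 fatty acids of fish oil, are ligands of the same receptor. Polyunsaturated fatty acids are also known to lower the processing and the transcript of SREBP-1, the factor that drives fatty acid synthesis, while its relative SREBP-2 drives cholesterol synthesis. The liver also makes most plasma proteins, bile acids and drug-metabolising enzymes, so that its transcriptome reports on functions far from lipids.

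Values are log2 expression levels of 1 array per mouse, and a difference is the mean on fenofibrate minus the mean on fish oil on that scale ± SE. A gene is called at an adjusted p under 0.05 (limma, Benjamini-Hochberg over all 8832 genes). Its groups do not overlap when every fenofibrate array lies above every fish oil array, or below, and the gap is the log2 distance between the nearest arrays of the groups. Array medians, taken over every probe set, ran from 2.90 to 2.97. Arrays correlated with the rest of their group at 0.985 to 0.991 across genes, except fish oil replicate 9 at 0.979. Nothing in the labels says which mice shared a cage. Consecutive label numbers were paired as an odd number and the even number after it. Arrays of such a pair deviated together (median correlation of deviations 0.10 over 11 pairs, against -0.14 for the 110 other pairs of a group), so the SE and adjusted p can be too small. Deviations from a group mean correlate negatively by construction, so the second value is not a distance from no correlation.

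The diets differed widely, and most of the called differences were small. Of the 8832 genes, 3601 (40.8%) were called, 1818 (20.6%) higher and 1783 (20.2%) lower on fenofibrate, with a median size of 0.317 among the called genes. The arrays of the groups did not overlap for 567 genes (6.42%), 364 (4.12%) higher on fenofibrate and 203 (2.30%) lower, and all 567 were also called. Size and separation were not the same thing. Of the genes without overlap, 390 differed by less than 2-fold, and 97 of the 274 called genes that differed by at least 2-fold did overlap. The median difference over all genes was -0.01. For 22 genes every fish oil array lay under a log2 value of 4, and for 5 genes every fenofibrate array did, so that these genes passed the filter on dim probe sets only through the other diet. Of these, 19 are counted among the 364 and 5 among the 203 genes without overlap. The filter fixed their direction in advance, and for the 5 also the lack of overlap, so their separation is no finding.

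**Figure D1:**
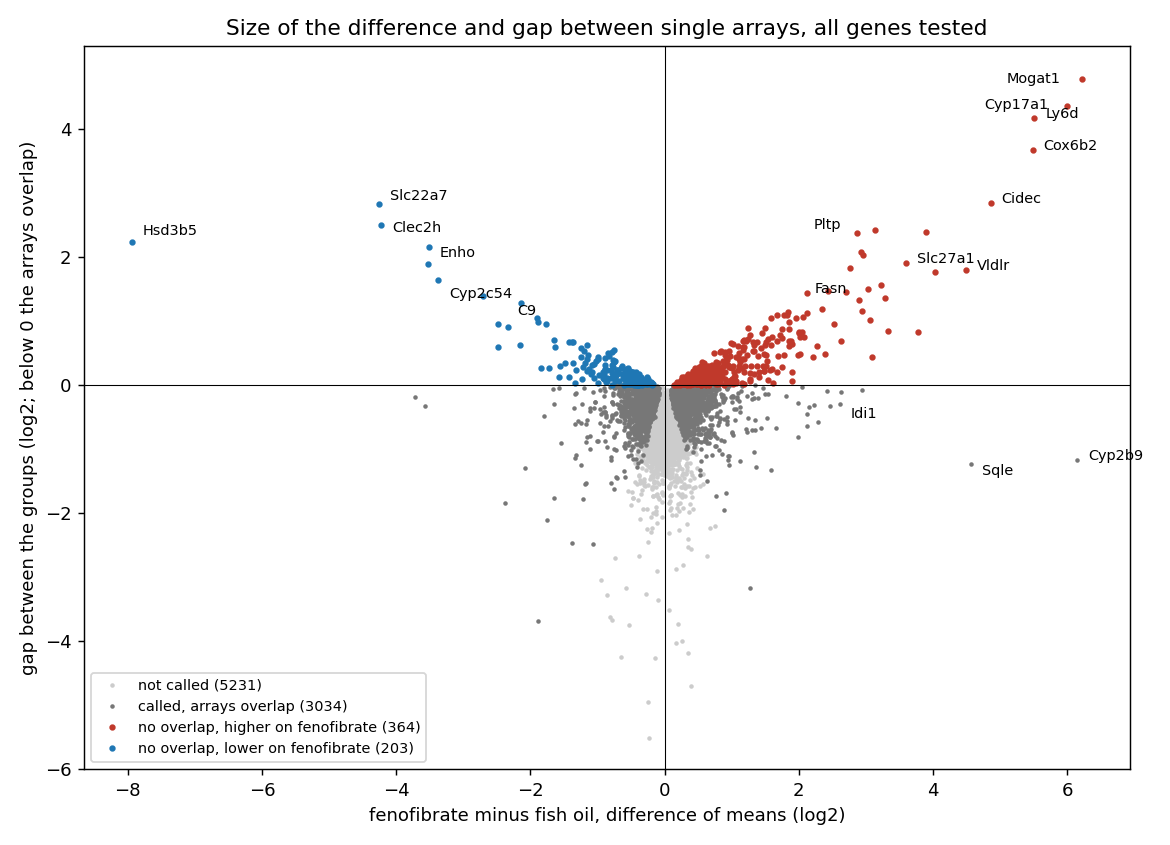
Each point is a gene, with the log2 difference of means on the horizontal axis and the log2 gap between the nearest arrays of the groups on the vertical axis, where values below 0 mean overlap. The 364 red and 203 blue points lie above 0, Mogat1 has the widest gap, and Cyp2b9 and Sqle differ strongly while their arrays overlap.

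Mogat1 and Cyp17a1 had the widest separations upward. Mogat1, a monoacylglycerol acyltransferase of triglyceride synthesis, ranged from 7.96 to 9.80 on fenofibrate (median 9.14) and from 2.50 to 3.18 on fish oil (median 2.73). All 11 fish oil arrays lay under the filter level of 4, so that the size of its fitted difference, 6.23 ± 0.18 (adjusted p = 1.74e-18), and its gap of 4.78 rest on the background correction. Cyp17a1, the 17α-hydroxylase of steroid synthesis, ranged from 9.58 to 10.81 on fenofibrate (median 10.17) and from 3.03 to 5.21 on fish oil (median 4.16). Its difference was 6.00 ± 0.20, and its median in the reference livers was 9.27, close to the fenofibrate arrays. Ly6d (5.51 ± 0.21) is a surface antigen and Cox6b2 (5.48 ± 0.19) the testis form of a cytochrome oxidase subunit. Both lay below 4 on every fish oil array, at 2.57 to 3.23 and 2.50 to 3.65, where values rest on the background correction. Gaps over 1 were also found for the droplet protein Cidec (difference 4.86 ± 0.25), the antimicrobial peptide Defb1 (4.03 ± 0.22), the zinc carrier Slc39a5 (3.89 ± 0.17), the calcineurin regulator Rcan2 (3.14 ± 0.13) and Serinc2 (2.93 ± 0.11). The smallest adjusted p of all genes belonged to Pltp, the phospholipid transfer protein of plasma (2.86 ± 0.08, adjusted p = 6.51e-19), at 13.20 to 13.73 on fenofibrate and 10.27 to 10.82 on fish oil. In all, 32 genes had a gap over 1 upward.

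Downward, 9 genes had a gap over 1. Hsd3b5, a hydroxysteroid dehydrogenase of male mouse liver, had the largest fitted difference (-7.94 ± 0.52, adjusted p = 1.08e-11), with 7 of 12 fenofibrate arrays under 4, where its size rests on the background correction. It ranged from 10.70 to 12.92 on fish oil (median 12.45) and from 2.74 to 8.46 on fenofibrate (median 3.72), so the drug group spread widely below the oil group without reaching it. Slc22a7, the organic anion transporter OAT2, lay at 3.54 to 4.76 on fenofibrate and 7.59 to 9.66 on fish oil (-4.25 ± 0.23). Clec2h, a C-type lectin, differed by -4.22 ± 0.23 and lay below 4 on every fenofibrate array, with a highest value of 3.90. Enho, which encodes the peptide adropin (-3.52 ± 0.17), and the short-chain dehydrogenase Sdr9c7 (-3.51 ± 0.22) followed. Cyp2c54 (-3.37 ± 0.26) and the aldehyde oxidase Aox3 (-2.14 ± 0.09) are drug-metabolising enzymes, and Cyp4f14 (-1.89 ± 0.10) hydroxylates leukotrienes and fatty acids. Over the genes without overlap, the reference median lay nearer the fish oil median for 283 of the 364 higher and 184 of the 203 lower genes, and nearer the fenofibrate median for the other 81 and 19.

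**Figure D2:**
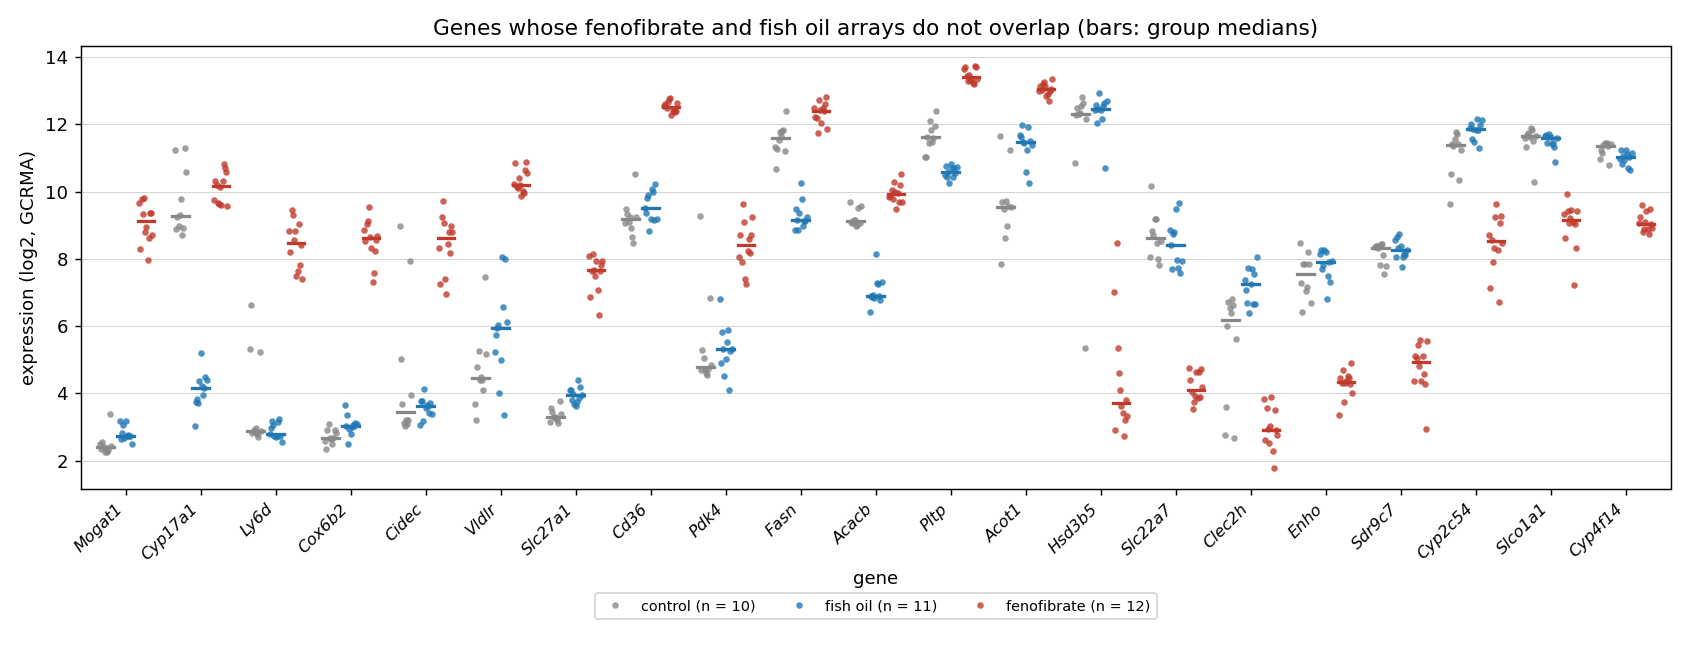
Log2 expression of genes without overlap on every array, with fenofibrate in red (n = 12), fish oil in blue (n = 11), the reference diet in grey (n = 10) and bars at the group medians. Fenofibrate arrays lie above all fish oil arrays from Mogat1 to Acot1 and below all of them from Hsd3b5 to Cyp4f14, while Cyp17a1, Fasn and Acacb have reference medians near the fenofibrate arrays.

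Cholesterol synthesis had the largest median difference of the 55 gene lists, yet few of them separated the groups completely. All 17 tested members of the list, of 20 listed, were higher on fenofibrate than on fish oil, where 20.6% of all genes were, with a median difference of 2.13. Only 3 of the 17 had no overlap: the kinase Pmvk (2.21 ± 0.17), squalene synthase Fdft1 (1.16 ± 0.12) and Hsd17b7 (1.18 ± 0.14), which were named after their values were seen. Sqle, the squalene epoxidase that is a control point of the pathway, ranged from 5.91 to 9.88 on fenofibrate (median 8.37) and from 2.80 to 7.14 on fish oil (median 3.04). The fitted difference was 4.57 ± 0.47 (adjusted p = 2.66e-08), with 8 of 11 fish oil arrays under 4, and the ranges crossed by 1.23. Farnesyl diphosphate synthase Fdps lay at 10.68 to 12.49 on fenofibrate and 7.76 to 10.75 on fish oil (2.95 ± 0.27). Idi1, the isomerase before it, lay at 10.47 to 12.56 and 7.59 to 10.76 (2.62 ± 0.29). Nsdhl (2.29 ± 0.23) and Lss (2.16 ± 0.24) act after squalene, Cyp51 (1.82 ± 0.21) removes a methyl group from lanosterol, and Hmgcs1 (1.54 ± 0.18) makes the HMG-CoA that feeds the pathway. Mvd (2.43 ± 0.33) reached at most 3.71 on fish oil, and passed the filter only through the fenofibrate arrays. For 16 of the 17 genes the reference median lay nearer the fenofibrate median.

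This overlap rested largely on 1 liver of each diet, fish oil replicate 6 and fenofibrate replicate 12. Fish oil replicate 6 had the highest fish oil value of Sqle (7.14), Idi1 (10.76) and Fdps (10.75), whereas fish oil replicate 5, the next, reached 5.10, 9.81 and 9.72. The median over the list of each array's deviation from the gene means was 0.38 in fish oil replicate 6, between -1.45 and -0.54 in the other fish oil arrays and between 0.17 and 1.78 in the fenofibrate arrays. Fenofibrate replicate 12 had the lowest fenofibrate value of the same genes, at 5.91, 10.47 and 10.68, whereas the next lowest arrays stood at 7.22, 10.84 and 11.27. Without fish oil replicate 6, 15 of the 17 genes had no overlap and the median difference was 2.30. Without fenofibrate replicate 12 alone, 11 of the 17 had no overlap and the median was 2.20. All 17 stayed called without either array. In the SREBP target panel, which mixes cholesterol and fatty acid genes, the count without overlap was 8 of 19, 17 without fish oil replicate 6 and 13 without fenofibrate replicate 12. Of the 56 called genes that were at least 2-fold higher on fenofibrate and overlapped, fish oil replicate 6 was the fish oil array nearest the fenofibrate arrays for 20 and fenofibrate replicate 12 the fenofibrate array nearest the fish oil arrays for 12, each the highest count on its side. These 56 include cholesterol genes described above, such as Sqle, Idi1 and Fdps. The counts are therefore not separate evidence, and genes outside the list were not counted alone.

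**Figure D3:**
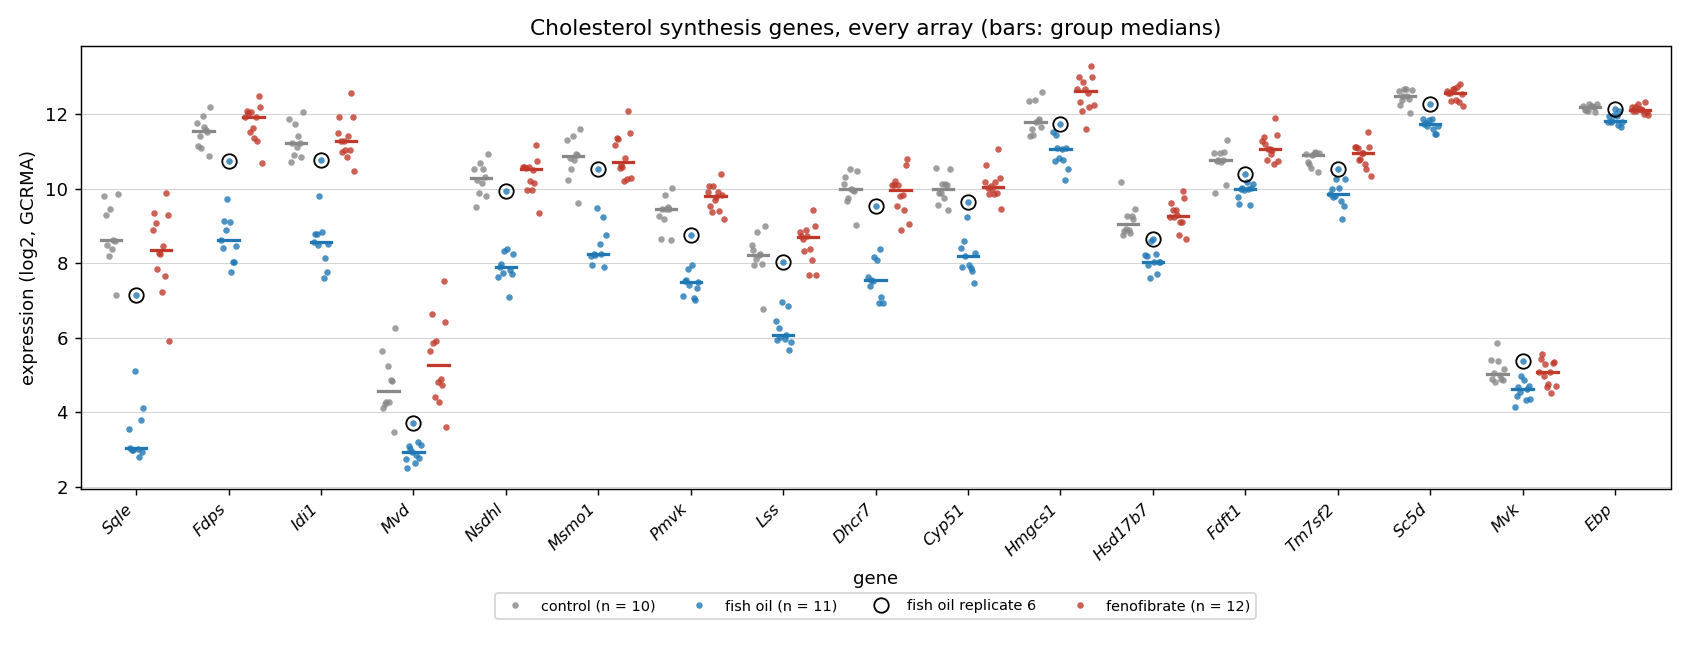
Log2 expression of the 17 tested cholesterol synthesis genes on every array, ordered by the difference between fenofibrate (red, n = 12) and fish oil (blue, n = 11), with the reference diet in grey (n = 10) and bars at group medians. The circled fish oil replicate 6 lies above the other fish oil arrays, as for Sqle at 7.14 against a fish oil median of 3.04.

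Sequence before the gene starts was not used in choosing the lists, and the stretches of 3 cholesterol genes and of the fatty acid synthase gene Fasn are printed to show a short motif found there. SREBP proteins bind sterol response elements together with NF-Y, a factor that binds the letters CCAAT. The 250 bases before each RefSeq start (GRCm38.p6) were searched on both strands for CCAAT, for the sterol element written as TCACNCCAC, and for the PPAR-type direct repeat, AGGNCA written a second time after 1 further base. The stretches are chr13:119690101-119690350 (plus strand) for Hmgcs1, chr13:8885356-8885605 (plus) for Idi1, chr1:169969206-169969455 (minus) for Hsd17b7 and chr11:120824548-120824797 (minus) for Fasn. Each lies upstream of the annotated start of its gene and is written 5′ to 3′ toward it, with CCAAT, its reverse complement ATTGG and the sterol element in capitals.
Hmgcs1: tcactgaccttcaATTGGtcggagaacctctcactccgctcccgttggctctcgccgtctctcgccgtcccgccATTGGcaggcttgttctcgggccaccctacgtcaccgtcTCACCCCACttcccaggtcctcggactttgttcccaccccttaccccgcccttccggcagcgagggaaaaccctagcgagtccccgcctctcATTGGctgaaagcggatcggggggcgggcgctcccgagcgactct
Idi1: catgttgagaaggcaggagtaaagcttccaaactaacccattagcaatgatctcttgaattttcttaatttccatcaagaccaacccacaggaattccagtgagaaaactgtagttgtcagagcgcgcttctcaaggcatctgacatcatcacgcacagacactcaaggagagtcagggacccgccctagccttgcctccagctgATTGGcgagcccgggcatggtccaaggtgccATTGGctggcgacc
Hsd17b7: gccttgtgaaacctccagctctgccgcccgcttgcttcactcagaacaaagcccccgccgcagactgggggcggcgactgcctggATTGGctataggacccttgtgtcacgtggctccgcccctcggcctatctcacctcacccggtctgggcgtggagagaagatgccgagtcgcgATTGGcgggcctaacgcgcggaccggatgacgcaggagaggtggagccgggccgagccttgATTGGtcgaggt
Fasn: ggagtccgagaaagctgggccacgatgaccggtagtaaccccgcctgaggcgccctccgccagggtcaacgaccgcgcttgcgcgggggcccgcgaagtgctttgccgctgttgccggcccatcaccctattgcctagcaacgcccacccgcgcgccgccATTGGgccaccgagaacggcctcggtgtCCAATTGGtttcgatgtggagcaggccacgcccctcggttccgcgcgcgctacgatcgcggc
The Hmgcs1 stretch holds 3 CCAAT matches and the sterol element, 137 to 129 bases before the start. Idi1 holds 2 CCAAT matches and Hsd17b7 holds 3. The Fasn stretch holds 3, of which the last pair, on opposite strands, overlap.

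A CCAAT match was found for 14 of the 14 cholesterol synthesis genes that have a promoter in the table, against 40.7% of the 7256 tested genes that have a promoter there. Counted by promoter, 82.4% of the 17 promoters of the list held it, against 35.2% of the 9317 promoters of tested genes. Of all 32851 promoters of that length, tested or not, 33.8% held it. Counts were 10 of 14 genes for the SREBP panel and 9 of 14 for fatty acid synthesis. Lists outside that pathway reached similar shares, with 19 of 25 for endoplasmic reticulum stress, 15 of 20 for the cell cycle, 9 of 12 for coenzyme A turnover and 7 of 10 for thioesterases, while complement had 3 of 16 and coagulation 4 of 20. The strict sterol element was rarer, in 1 of the 14 cholesterol genes (Hmgcs1) and 1.38% of the tested genes. The direct repeat was found for 0 of 19 mitochondrial beta-oxidation genes, for 1 of the 16 genes of the PPARα target panel (Fabp1), for 3 of 20 cytochrome P450 genes and for 0.386% of the tested genes. It was found for 1 of 300 genes without overlap that were higher and for 5 of 158 that were lower. A match describes letters in this window and is neither a binding site nor a cause. A gene with several starts counts where any of them holds the motif.

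Regulators of the sterol pathway differed by less than its enzymes, by the medians of the lists. In the list of sterol regulation and uptake 8 of 14 genes were higher, 1 was lower and 5 did not pass, with a median of 0.40. Insig1, which holds SREBPs in the endoplasmic reticulum when sterols are plentiful, ranged from 9.97 to 10.95 on fenofibrate and from 8.15 to 9.80 on fish oil (1.33 ± 0.14) and did not overlap. Srebf1, which encodes SREBP-1, was higher by 1.02 ± 0.14 and Srebf2 by 0.85 ± 0.13, and the arrays of both overlapped. Stard4, a sterol carrier protein, was higher by 0.99 ± 0.16 and Insig2 by 0.62 ± 0.20.

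Fatty acid synthesis separated the drug from the oil both by size and by array. All 15 tested genes of fatty acid synthesis and NADPH supply were higher on fenofibrate, with a median of 1.23, and 10 of them had no overlap, where 4.12% of all genes had none in that direction. Fatty acid synthase Fasn lay at 11.75 to 12.80 on fenofibrate (median 12.40) and 8.84 to 10.24 on fish oil (median 9.17), a difference of 3.04 ± 0.15 (adjusted p = 4.43e-14) without overlap. Every array of the drug group was above every array of the oil group, and the reference median of 11.59 lay between the diets, nearer the drug. Over the 15 genes of the list, the reference median lay nearer fenofibrate for 8 and nearer fish oil for 7. Acacb, the mitochondrial acetyl-CoA carboxylase whose product restrains carnitine palmitoyltransferase, differed by 2.89 ± 0.15, and Acaca, the cytosolic form, by 1.86 ± 0.11. Acss2 (2.02 ± 0.16) makes acetyl-CoA from acetate, and malic enzyme Me1 (1.79 ± 0.09) supplies NADPH. Thrsp, a lipogenic nuclear protein also called Spot 14, differed by 1.99 ± 0.34 with overlap, and Acly, the ATP citrate lyase, by 1.12 ± 0.16 with overlap.

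Desaturases and elongases, which turn dietary acids into long polyunsaturated ones, followed the same pattern. In this list 12 of 15 genes were higher and 1 was lower, 10 higher and 1 lower had no overlap, and the median was 0.52. Fads2, the delta-6 desaturase, ranged from 12.75 to 13.15 on fenofibrate and from 10.40 to 11.31 on fish oil (2.13 ± 0.09), and Fads1, the delta-5 desaturase, from 12.63 to 13.02 and 10.54 to 11.53 (1.83 ± 0.09). Neither gene's groups came within 1 log2 unit of each other. Elovl6, which lengthens palmitate, differed by 2.06 ± 0.14, Scd2 by 1.40 ± 0.15 and Elovl5, which acts on polyunsaturated acids, by 1.28 ± 0.08. The stearoyl-CoA desaturase Scd1 differed by 0.47 ± 0.05 on its brightest probe set, at 14.36 to 14.50 on fenofibrate and 13.71 to 14.18 on fish oil, near the top of the scale, and by 1.43 on another. In the desaturase and elongase list the reference median lay nearer fenofibrate for 9 of the 15 genes and nearer fish oil for 6. Over the SREBP panel all 19 tested genes of 24 listed were higher, with a median of 1.83, and for 17 of the 19 the reference median lay nearer fenofibrate. Of these 19, 1 passed the filter only through the fenofibrate arrays, so it could be counted in this direction only.

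**Figure D4:**
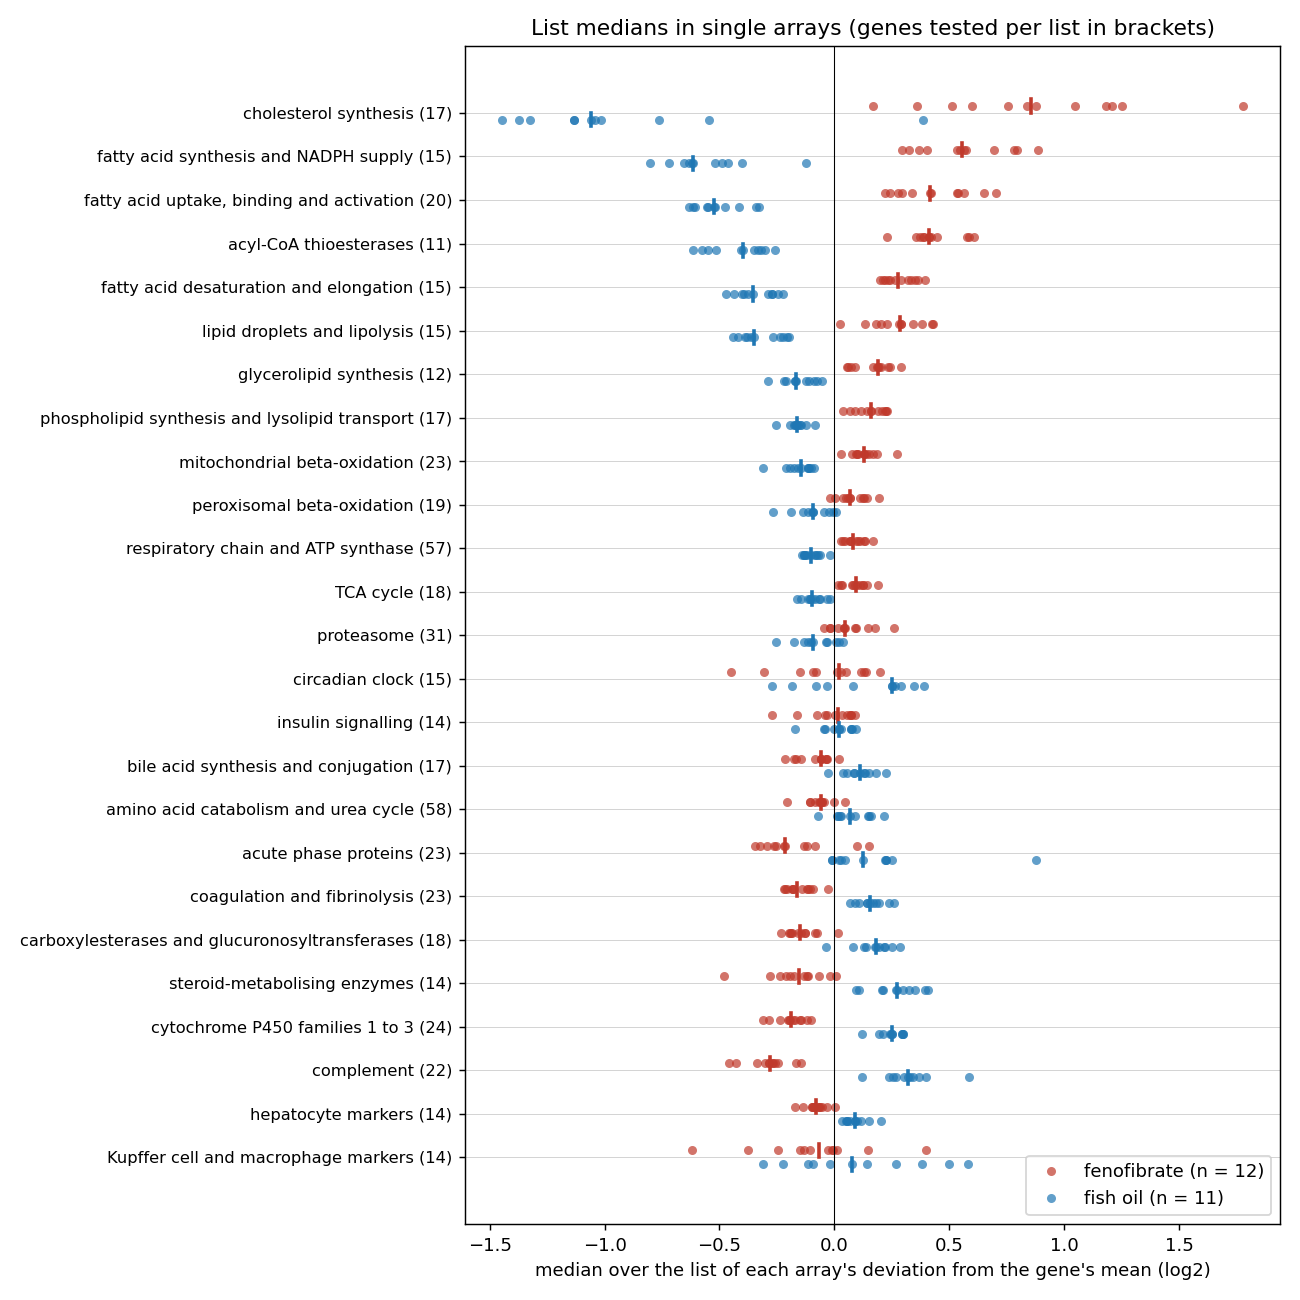
Each point is an array, placed at the median over a gene list of its log2 deviations from the gene means, with fenofibrate in red (n = 12), fish oil in blue (n = 11), ticks at group medians and the number of genes tested in brackets. Cholesterol synthesis has the widest shift but a fish oil array at 0.38 among the fenofibrate arrays, while lists with smaller shifts, such as complement and coagulation, have no overlap.

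Genes for the uptake, binding and activation of fatty acids were mostly higher on fenofibrate and were among the best separated. Of 20 genes that import, bind or activate fatty acids 13 were higher and 2 lower, 11 higher and 1 lower had no overlap, and the median was 1.11. The translocase Cd36 lay at 12.26 to 12.79 on fenofibrate and 8.83 to 10.23 on fish oil (2.96 ± 0.13, adjusted p = 1.49e-14), and the transport protein Slc27a1 at 6.32 to 8.13 and 3.64 to 4.41. The VLDL receptor Vldlr differed by 4.49 ± 0.40. Its fish oil arrays spread from 3.36 to 8.06, while its fenofibrate arrays stayed between 9.86 and 10.87, so the separation held over an uneven oil group. Lipoprotein lipase Lpl, which releases fatty acids from lipoproteins, was higher by 2.52 ± 0.17 without overlap. Fabp5, a fatty acid binding protein, was higher by 2.63 ± 0.28 with overlap. Its reference median of 12.96 equalled the fenofibrate median to 2 decimals, with a fish oil median of 10.24.

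Genes that store fat and make glycerolipids were higher on the drug as well. Of 15 genes of lipid droplets and lipolysis 11 were higher and 0 lower, 3 without overlap, with a median of 0.53. Cidec, which enlarges droplets, lay at 6.96 to 9.72 on fenofibrate and 3.05 to 4.12 on fish oil, partly under the filter level of 4. Monoacylglycerol lipase Mgll (0.99 ± 0.05) and lysosomal lipase Lipa (0.82 ± 0.05), which break lipids down, were the other genes without overlap. Of 12 glycerolipid genes 6 were higher, 4 without overlap, and 2 lower. Mogat1, which passed the filter only through fenofibrate, is among these 12, with the acyltransferases Gpat3 (1.43 ± 0.11), Gpam (0.68 ± 0.07) and Agpat3 (0.49 ± 0.05). Of 17 genes of phospholipid synthesis and lysolipid transport 11 were higher, 4 without overlap, and 1 was lower, with a median of 0.28. Mfsd2a, which carries lysophospholipids that hold DHA, ranged from 10.80 to 11.73 on fenofibrate and from 4.01 to 9.97 on fish oil (3.78 ± 0.51). Its lowest fish oil array stood far below the fish oil median of 8.06, and its reference median was 10.45.

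Mitochondrial oxidation genes differed by small amounts, mostly in 1 direction. Of 23 mitochondrial beta-oxidation genes 20 were higher on fenofibrate than on fish oil and 1 was lower, 10 higher and 1 lower without overlap, and the median was 0.28. The reference median lay below both diets for 19 of the 23. Carnitine acetyltransferase Crat differed by 1.32 ± 0.12, at 10.39 to 10.96 on fenofibrate and 8.33 to 9.71 on fish oil, and the isomerase Eci1 by 0.76 ± 0.05. Decr1, which handles double bonds, differed by 0.57 ± 0.04, and the trifunctional protein subunit Hadha by 0.47 ± 0.05. These small differences still left no overlap between the groups. The lower gene was Acadsb, a dehydrogenase of branched-chain amino acid breakdown (-0.74 ± 0.09, no overlap).

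Peroxisomal genes split in direction. Of 19 peroxisomal beta-oxidation genes 10 were higher and 6 lower, 6 higher and 1 lower without overlap, with a median of 0.20. Ehhadh, the bifunctional enzyme and a classic PPARα target, lay at 14.13 to 14.33 on fenofibrate and 12.40 to 13.54 on fish oil (1.19 ± 0.11), with a reference median of 11.59. The peroxisomal transporter Abcd2 differed by 1.90 ± 0.34, from 8.26 to 9.16 on fenofibrate and from 3.83 to 8.06 on fish oil. Abcd3 (0.54 ± 0.04), Ech1 (0.56 ± 0.04) and Decr2 (0.52 ± 0.05) also had no overlap. Of 18 genes of peroxisome assembly and division 5 were higher and 3 lower, with a median of 0.04, a share called close to that of all genes. Pex11a, which divides peroxisomes (0.79 ± 0.07), and Pex19 (0.44 ± 0.05) had no overlap.

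Thioesterases release fatty acids from coenzyme A, and most were higher on fenofibrate. Of 11 tested genes 10 were higher and 0 lower, 6 without overlap, with a median of 0.86. Acot1 lay at 12.68 to 13.33 on fenofibrate and 10.25 to 11.99 on fish oil (1.68 ± 0.15), and Acot2 differed by 2.00 ± 0.17. Acot3 differed by more, 2.46 ± 0.35, but overlapped. These genes are close relatives, and a probe set of 1 can bind transcripts of others. The microsomal omega-oxidation list was split, with 4 of 9 genes higher and 4 lower. Cyp4a31 (2.77 ± 0.16) and the aldehyde dehydrogenase Aldh3a2 (1.17 ± 0.11) were higher and Cyp4f14 and Cyp4v3 (-1.16 ± 0.08) lower, all without overlap. In ketone body synthesis 3 of 5 genes were higher by 0.15 to 0.61 with overlap, and Bdh2 was lower (-1.64 ± 0.15) without it.

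Over the panel of PPARα targets, 19 of 24 listed genes were tested, and 16 were higher on fenofibrate, 2 lower and 1 did not pass, with 13 without overlap and a median of 0.79. Mogat1 is among the 13 and passed the filter only through fenofibrate, so it could be counted in this direction only. Besides the genes above, the kinase Pdk4, which shuts off pyruvate dehydrogenase, was higher by 3.10 ± 0.28, at 7.25 to 9.62 on fenofibrate and 4.12 to 6.81 on fish oil. Fgf21, the fasting hormone of the liver, was higher by 2.12 ± 0.29, with overlap and at dim levels (fish oil median 2.73). The pantetheinase Vnn1 differed by 0.94 ± 0.07, Acaa1b by 0.37 ± 0.04 and Cyp4a14 by 0.40 ± 0.07, each without overlap. Cyp4a14 lay at 14.09 to 14.26 on fenofibrate, near the top of the scale, and lost its call when all 33 arrays entered the fit (adjusted p = 0.499). Plin2 (0.52 ± 0.09), Acadm (0.31 ± 0.05) and Cpt2 (0.24 ± 0.06) differed little. Angptl4, an inhibitor of lipoprotein lipase (-0.42 ± 0.10), and the transcription factor Creb3l3 (-0.24 ± 0.05) were lower on the drug. Fabp1 did not pass (0.07 ± 0.03), at 15.37 to 15.63 over both groups. For 15 of the 19 genes the reference median lay below both diets.

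Genes of the respiratory chain and the TCA cycle were mostly higher on fenofibrate by small amounts. For scale, 20.6% of all genes tested were called higher and 20.2% lower, and 4.12% were higher without overlap. Of 57 respiratory chain and ATP synthase genes 49 were higher and 1 lower, 13 without overlap, with a median of 0.20. Ndufab1, the mitochondrial acyl carrier protein, led them, at 12.69 to 12.96 on fenofibrate and 11.98 to 12.19 on fish oil (0.73 ± 0.04). The call of the lower gene was lost when any of most single arrays was left out. Of 18 TCA cycle genes 12 were higher and 0 lower, and citrate synthase Cs (0.78 ± 0.06) and Sdhd (0.34 ± 0.04) were among the 3 without overlap, a count of 5 without fish oil replicate 9 or without fenofibrate replicate 3. Of 20 mitochondrial carriers 8 were higher, 4 without overlap, and 2 lower (0 without fish oil replicate 2), with Slc25a10 at 0.56 ± 0.05 and the carnitine carrier Slc25a20 at 0.35 ± 0.05. The median of the carrier list was 0.08, and its array medians overlapped. In the coenzyme A list 8 of 14 genes were higher and 2 lower. The glucose list had no common direction, with 9 of 30 genes higher, 7 lower and a median of -0.01. Within it Pdk4, the glycogen-targeting subunit Ppp1r3g (3.33 ± 0.29) and Dlat (0.97 ± 0.10) were higher without overlap, and Ppp1r3c was lower (-1.33 ± 0.31) with overlap.

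Genes of drug and steroid metabolism were mostly lower on fenofibrate. Of 24 tested cytochrome P450 genes of families 1 to 3, out of 40 listed, 16 were lower on fenofibrate, where 20.2% of all genes were, and 14 of these had no overlap, where 2.30% of all genes had none. The list median was -0.47, and -0.25 without the filter on dim probe sets. Cyp2c54 lay at 6.71 to 9.64 on fenofibrate and 11.29 to 12.15 on fish oil, Cyp2c37 differed by -2.16 ± 0.18 and Cyp2c50 by -1.88 ± 0.13. Members of this family can share probes. Of 3 higher genes, Cyp2b9 showed one of the largest differences of all (6.15 ± 0.69) but overlapped, since the fish oil arrays ran from 1.69 to 8.70 around a median of 3.45 and the fenofibrate arrays from 7.53 to 11.89. Cyp2c38 was higher by 1.62 ± 0.23, with a gap of 0.04. Of 18 carboxylesterases and glucuronosyltransferases 11 were lower, 5 without overlap, and 0 higher, with a median of -0.35 and examples in Ugt2b1 (-1.16 ± 0.09) and Ces2a (-0.78 ± 0.09).

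Over all genes tested the shares called were 20.2% lower and 20.6% higher, with 2.30% and 4.12% without overlap. Of 14 steroid-metabolising enzymes 9 were lower, 4 without overlap, and 2 higher, both without overlap, with a median of -0.56. The largest differences of the list point in opposite directions, Hsd3b5 down and Cyp17a1 up. Hsd3b2 (-1.36 ± 0.19) and Hsd11b1, which reactivates glucocorticoids (-0.99 ± 0.08), were lower without overlap. Bile acid synthesis was lower as a list, with 9 of 17 genes lower, 2 higher and a median of -0.22. Cyp7b1 of the alternative pathway was lower by 1.66 on the log2 scale (-1.66 ± 0.18) with overlap, and Cyp8b1, the 12α-hydroxylase, was higher (0.73 ± 0.15) with overlap. Akr1c6 (-0.54 ± 0.04) and the conjugating enzyme Baat (-0.41 ± 0.05) were the genes without overlap. Of 17 bile and organic anion transporters 6 were lower and 3 higher, and the array medians of the list overlapped. Slc22a7 and the uptake carrier Slco1a1 (-2.48 ± 0.21, at 7.24 to 9.91 on fenofibrate and 10.87 to 11.72 on fish oil) were lower, and the export pump Abcc4 was higher (1.20 ± 0.14), all without overlap.

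Lipoprotein genes were mixed, with 6 of 24 higher, 11 lower and a median of -0.03. Next to Pltp, Apoa4 was higher by 2.34 ± 0.17, at 10.73 to 12.52 on fenofibrate and 8.44 to 9.54 on fish oil, with a reference median of 12.36. Apoc2, the cofactor of lipoprotein lipase (0.53 ± 0.05), was higher and Apom, which carries sphingosine phosphate (-0.51 ± 0.04), lower, both without overlap. Endothelial lipase Lipg was higher by 1.58 ± 0.33 with overlap.

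Plasma defence proteins separated the diets with modest differences. Of 22 tested complement genes, of 28 listed, 20 were lower on fenofibrate and 0 higher, and 15 had no overlap, with a median of -0.52. The genes of the terminal, pore-forming part of the pathway differed most. C9 lay at 10.30 to 11.25 on fenofibrate and 12.21 to 13.25 on fish oil (-1.76 ± 0.12), C8b at 9.13 to 10.65 and 10.93 to 12.21 (-1.85 ± 0.17) and C8a at 11.20 to 11.86 and 12.53 to 13.16 (-1.37 ± 0.09). C6 differed by -1.65 ± 0.20 and overlapped, and C2, which builds a convertase, differed by -0.91 ± 0.12 without overlap. Of 23 coagulation genes 18 were lower and 0 higher, 13 without overlap, with a median of -0.28. F11 (-1.23 ± 0.14), F7 (-0.88 ± 0.07), plasma prekallikrein Klkb1 (-0.58 ± 0.05), antiplasmin Serpinf2 (-0.54 ± 0.05) and F5 (-0.51 ± 0.06) led them. The reference median lay nearer fish oil for 20 of the 22 complement and 22 of the 23 coagulation genes. It lay above both diets for 16 of the 22 and 18 of the 23.

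**Figure D5:**
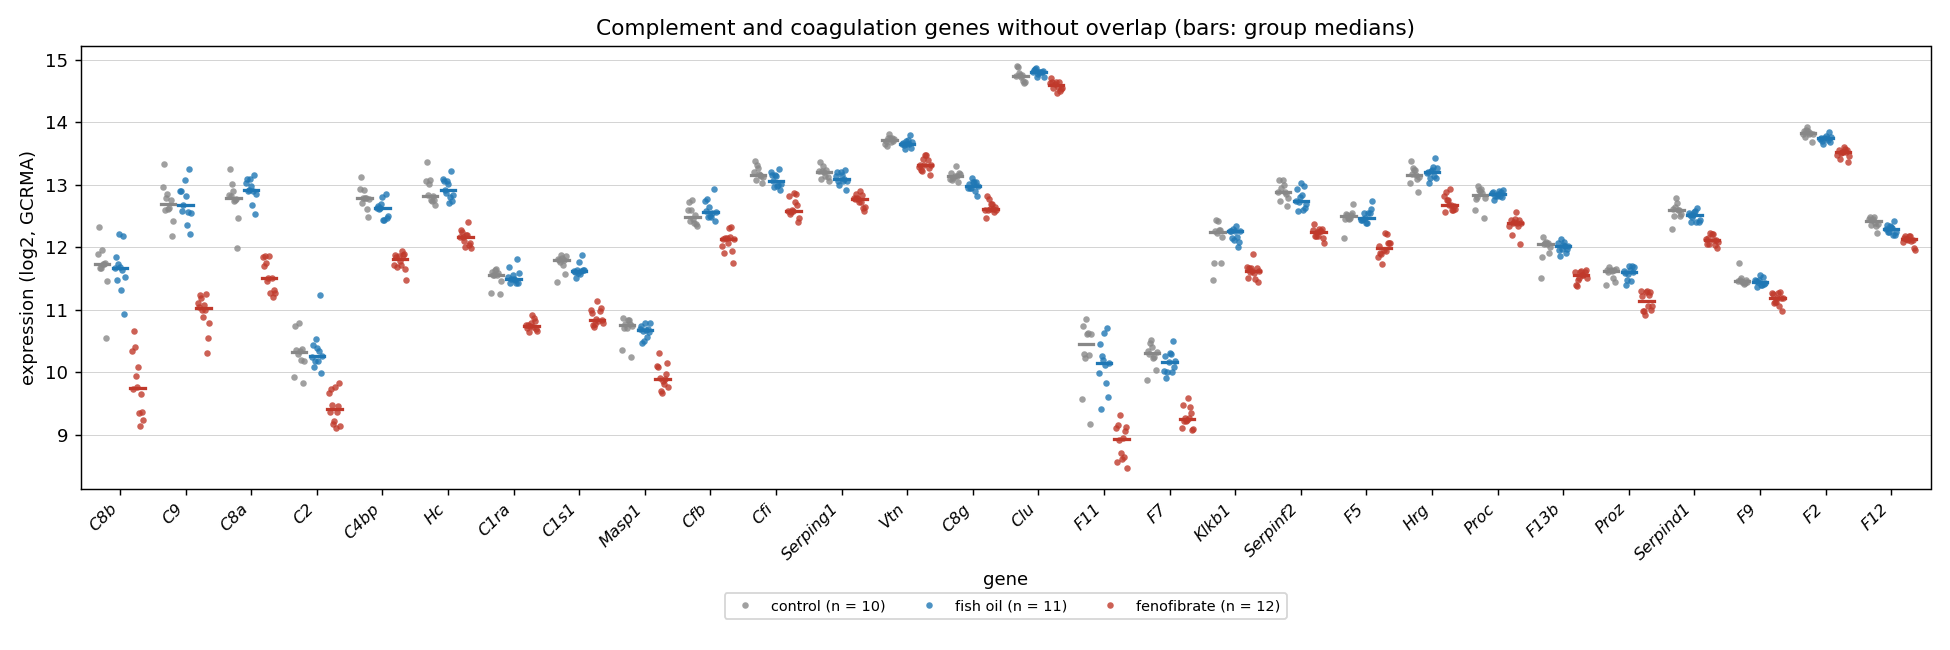
Log2 expression of the 15 complement and 13 coagulation genes without overlap on every array, with fenofibrate in red (n = 12), fish oil in blue (n = 11), the reference diet in grey (n = 10) and bars at the group medians. Every fenofibrate array lies below every fish oil array, and the reference median lies nearer fish oil for most genes, as for C9 at 12.69 against 12.68 on fish oil and 11.02 on fenofibrate.

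Complement, coagulation and cholesterol synthesis show the contrast between size and separation. The complement median is smaller in size than the cholesterol median, yet the list's array medians ran from -0.46 to -0.15 on fenofibrate and from 0.12 to 0.58 on fish oil, with no array between. Over the 51 lists with at least 5 tested genes, array medians did not overlap for 14 lists higher on fenofibrate and 5 lower, and overlapped for 32. The 5 were cytochromes P450, complement, coagulation, steroid-metabolising enzymes and hepatocyte markers. The widest gaps upward were for fatty acid uptake (0.55), thioesterases (0.49), the SREBP panel (0.45), desaturation (0.42) and fatty acid synthesis (0.42).

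Acute phase proteins were less clean than complement. Of 23 genes 11 were lower and 1 higher, 5 lower and 1 higher without overlap, with a median of -0.40. Fish oil replicate 9 stood apart, with a list median of 0.88 against -0.01 to 0.25 in the other fish oil arrays. Without it 10 were lower and 3 higher, and without fenofibrate replicate 6 or 12, 2 were higher. Serum amyloid Saa4 was lower by 0.98 (-0.98 ± 0.12) and did not overlap, the receptor Il6ra was lower (-1.80 ± 0.27) with overlap, and the interleukin-1 antagonist Il1rn was higher (1.57 ± 0.16) without it. Orm2 (-1.38 ± 0.53, adjusted p = 0.0392) lost its call under 14 alternatives, with an adjusted p up to 0.247. Among hepatokines 10 of 21 genes were lower and 3 higher. Enho was lower without overlap and Serpina12, the adipokine vaspin, was lower (-3.56 ± 0.47), at 4.28 to 10.01 on fenofibrate and 9.68 to 12.71 on fish oil.

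Of 28 nuclear receptors and liver transcription factors 7 were lower, 1 was higher and 20 did not pass, where 40.8% of all genes were called, and 0 of 28 separated the groups, where 6.42% of all genes did. Without fish oil replicate 4, or without fenofibrate replicate 4, 4 were lower. Ppara itself did not pass (-0.03 ± 0.07), at 11.90 to 12.50 on fenofibrate and 12.05 to 12.60 on fish oil. Pparg was higher by 0.65 ± 0.14. The PPARα partner Rxra (-0.31 ± 0.07), the bile acid receptor Nr1h4 (-0.31 ± 0.07), the hepatocyte factors Hnf4a (-0.47 ± 0.06) and Foxa3 (-0.75 ± 0.12), Ahr (-0.40 ± 0.14), Cebpd (-0.47 ± 0.18) and Nr3c1 (-0.13 ± 0.05) were lower. The calls of Ahr, Cebpd and Nr3c1 were lost under 7, 17 and 11 alternatives, with adjusted p up to 0.0631, 0.131 and 0.0954. The genes that did not pass had differences from -0.33 (Ppargc1b) to 0.33 (Ppargc1a). They include Rxrb, Nr1i2, Nr1i3, Nr1h3, Nr0b2, Nr5a2, Foxa1, Foxa2, Onecut1, Cebpa, Cebpb, Cebpg, Esr1, Arnt, Rora, Nr1d1 and Nr1d2. Of 15 clock genes Hlf was lower (-0.42 ± 0.10) and 0 were higher, with up to 3 lower when 1 array was left out (fish oil replicates 3, 5 and 6 and fenofibrate replicate 9), and of 14 insulin signalling genes 2 were lower. In growth hormone signalling 5 of 12 genes were lower and 1 higher. The receptor Ghr (-0.53 ± 0.05) and its target Igf1 (-0.43 ± 0.07) had no overlap, Egfr was lower (-1.23 ± 0.22) and the leptin receptor Lepr higher (1.36 ± 0.35).

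Other cell functions differed in part, where 20.6% of all genes were called higher and 20.2% lower. Of 58 genes of amino acid breakdown and the urea cycle 27 were lower, 5 without overlap, and 6 higher, with a median of -0.14 and examples in histidase Hal (-0.91 ± 0.10), the urea cycle enzyme Otc (-0.67 ± 0.07) and Cbs (-0.59 ± 0.09). Without fish oil replicate 3, 8 of the lower genes had no overlap. Of 31 proteasome genes 20 were higher and 0 lower, by at most 0.43, with 3 without overlap. Of 24 cell cycle genes 11 were higher and 1 lower, with cyclin Ccnd1 (2.01 ± 0.18) higher and Mcm10 (-0.85 ± 0.11) lower without overlap, while 12 of the 36 list genes on the array lay below the filter. Of 28 genes of endoplasmic reticulum stress 12 were lower and 3 higher, with Sdf2l1 at -1.54 ± 0.30 and the factor Xbp1 at -0.56 ± 0.07, the latter without overlap, and 5 were higher without fenofibrate replicate 11. Of 38 glutathione and antioxidant genes 16 were higher and 5 lower, with sulfiredoxin Srxn1 (1.09 ± 0.10) and Gstm4 (0.96 ± 0.10) without overlap, and 8 were lower without fish oil replicate 9. Metallothioneins Mt1 (-1.19 ± 0.37) and Mt2 (-1.65 ± 0.40) were lower, and hepcidin gene Hamp2 higher (1.39 ± 0.22), all with overlap. Mt1 lost its call under 2 alternatives (adjusted p up to 0.0725). Of 33 interferon and antigen presentation genes 12 were lower and 3 higher, with Ifit1 at -1.58 ± 0.23. Of 27 lysosome and autophagy genes 9 were higher, among them Map1lc3a (0.65 ± 0.05), and 8 lower, among them Ctsa (-0.59 ± 0.05). In retinoid metabolism 7 of 22 genes were higher, with Rdh11 (2.28 ± 0.17) and Rdh16 (1.75 ± 0.11) without overlap, and 7 lower.

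Markers of cell types were measured beside these results. Over all genes tested, 20.6% were called higher and 20.2% lower, and 6.42% had no overlap. The share called in the Kupffer cell, sinusoidal endothelial and periportal lists did not exceed the 40.8% of all genes. Of 14 hepatocyte markers 9 were lower and 0 higher, with a median of -0.16, and Ahsg, a plasma protein gene that is also in the acute phase list, was the only one without overlap (-0.40 ± 0.04), against 4 without fenofibrate replicate 7 and 2 without fish oil replicate 3, 5 or 9. Hnf4a, Cps1 (-0.34 ± 0.04) and Asgr2 (-0.40 ± 0.07) were lower too. Their part in the lower plasma protein and P450 genes was not tested. In whole liver, fewer cells of a type and less RNA per cell cannot be told apart. Of 14 Kupffer cell markers 4 were lower (2 when any of fish oil replicates 2, 8 and 9 or fenofibrate replicates 1, 5 and 12 was left out) and 0 higher, 0 without overlap, with Fcna at -0.43 ± 0.08 and Clec4f at -0.27 ± 0.10, and the array medians of the list ran from -0.62 to 0.40 on fenofibrate and -0.31 to 0.58 on fish oil. The call of Clec4f was lost under 11 alternatives (adjusted p up to 0.066). Of 12 stellate cell markers 5 were lower, among them Rgs5 (-0.45 ± 0.05), and 3 higher, among them Col3a1 (0.75 ± 0.13). Of 17 sinusoidal endothelial markers 2 were lower and 2 higher, with Lyve1 higher by 1.34 ± 0.17. Pericentral Cyp1a2 was lower (-1.20 ± 0.09) while pericentral Glul was higher by 0.14 ± 0.05 (its call was lost under 2 alternatives, with an adjusted p up to 0.0947), and periportal Cyp2f2 was lower (-0.51 ± 0.07). Of 10 pericentral markers 4 were lower and 1 higher, and of 10 periportal markers 3 were lower and 1 higher. Among the adipocyte markers 5 of 8 genes on the array passed the filter, of which 3 were higher, Cidec, Fabp4 (1.47 ± 0.31) and Lipe (0.53 ± 0.17), and 1 lower, Car3 (-0.80 ± 0.10), and the array medians of this list did not overlap (gap 0.05). Of the other lists few genes passed, 3 of 8 for bile duct cells, 2 of 10 for lymphocytes, 4 of 10 for blood cells and 1 of 8 for pancreatic acini. Of the bile duct genes 1 was higher, Krt23 (1.90 ± 0.32), and the others, Sox9 (-0.14 ± 0.12) and Tff3 (-0.27 ± 0.51), did not pass. Of the lymphocyte genes Ighm was higher (0.97 ± 0.25) and Ptprc did not pass (-0.12 ± 0.13). Sox9, Tff3 and Ptprc were named after their values were seen, to complete these lists. Cela1 of the acinar list was lower (-1.11 ± 0.14). Of the blood cell genes 1 of 4 was called, Alas2, the heme synthesis gene of red cells, at 7.54 to 9.22 on fenofibrate and 9.35 to 10.03 on fish oil (-1.43 ± 0.16).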

How the data were processed

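Liver RNA of each mouse was hybridised to 1 Affymetrix array, with 5 µg of RNA per labelling and RNA integrity numbers above 8, per the labels. The authors deposited log2 expression values per probe set and, by the submitters' processing notes, used GCRMA 2.24.1. That method corrects background by probe sequence and equalises array distributions, so differences of dim or very bright probe sets can be compressed. Arrays have no read depth, and their number limits the precision.

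Of 45101 probe sets, 64 control probe sets were left out, 34945 carried 1 gene in GEO's platform annotation, 932 several and 9160 were not named here. Symbols were updated by gene ID for 34741 to GRCm38.p6 names. A probe set entered if 11 or more of the 23 arrays reached log2 4 (14833 did), and the brightest stood for its gene (8832 genes, 3753 with more than 1). The diets were compared with limma 3.58.1 (statmod 1.5.0, R 4.3.3; lmFit, eBayes, two-sided). Data were simulated with independent noise on each array and 200 of 8832 genes changed. There 50% of the genes changed by 0.3 (log2), 88% of those changed by 0.5 and 100% of those changed by 1 or 2 were called. Of the calls, 5.06% fell on unchanged genes. The simulation held no shared deviation between arrays and far fewer changed genes than were called here, so these rates need not carry over.

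The 55 gene lists and the genes named were chosen with earlier results of these data known, and the lists overlap. Named are the 15 largest differences in each direction among called genes without overlap, the 10 widest gaps in each direction, up to 5 called members per list with the largest differences, and every tested member of the PPARα panel, the SREBP panel and the transcription factor list; predicted genes and RIKEN clones are counted only. Exceptions are stated. Replicate numbers did not pair arrays of the diets: over 11 shared numbers deviations correlated at -0.18 to 0.20. Alternatives changed the filter, scaling, probe set, variance model, array weights, blocks and arrays. Some list genes were not analysed here. P-values measure the spread between mice as labelled.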

Additional observations from a re-analysis of the deposited data

How the results depend on the processing

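Leaving out each array in turn gave 1727 to 1856 called higher, 1646 to 1884 called lower, 365 to 399 without overlap higher and 204 to 250 without overlap lower, the last highest without fish oil replicate 9. With each pair of consecutive label numbers, odd and then even, as a random block 1628 were called higher and 1477 lower. With all 33 arrays in the fit 1759 and 1694 were. The replicate number as a block gave 1726 higher and 1566 lower; the labels tie these numbers to no shared source and in 0 of 11 cases an array correlated best with its own number. An adjusted p under 0.01 left 1113 lower. A gap of at least 0.5 left 83 higher and 26 lower genes without overlap. Leaving out the 5 arrays whose label number carries an A, 4 on fenofibrate and 1 on fish oil, gave 528 higher and 331 lower genes without overlap. Fish oil replicate 9, whose removal alone gave 250 lower, is 1 of the 5. Leaving out arrays can only keep or raise these counts, and a part of the suffix itself was not tested.

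List medians moved by more than the spread between arrays in 13 cases, and the cause was not tested. Without a filter they were -0.25 for cytochromes P450, -0.31 for pericentral markers and 0.19 for adipocyte markers. With a stricter filter they were 0.03 for the cell cycle, -0.011 for periportal and -0.14 for pericentral markers. With the mean of probe sets they were 0.66 for desaturation and -0.26 for hepatokines. Without the A arrays they were -0.19 for transporters and -0.14 for pericentral markers. Leaving out each array in turn, the cell cycle median ran from 0.18 (without fenofibrate replicate 11) to 0.37, the glycerolipid median from 0.20 to 0.36 (without fish oil replicate 10) and the periportal median from -0.15 to -0.0028 (without fish oil replicate 10). Of the named genes, only the endothelial marker Fcgr2b turned sign while called, to 0.093 (adjusted p = 0.119) with the mean of its probe sets.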
